A study of Mus musculus with 6 samples.

Results

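The miR-23, miR-27 and miR-24 miRNAs of mouse liver were read as 9 mature miRNAs, out of 1546 mature miRNAs listed for 6 small RNA libraries. They were chosen by name, as the guide and partner strands of 2 clusters, Mir23a, Mir27a and Mir24-2 on chromosome 8 and Mir23b, Mir27b and Mir24-1 on chromosome 13. They are mmu-miR-23a-3p, mmu-miR-27a-3p, mmu-miR-27a-5p and mmu-miR-24-2-5p from chromosome 8, mmu-miR-23b-3p, mmu-miR-27b-3p, mmu-miR-27b-5p and mmu-miR-24-1-5p from chromosome 13, and mmu-miR-24-3p, which both clusters make. All 9 were found in the deposited values. Levels are in CPM, a miRNA's reads scaled to the same total of miRNA reads in each library, and all 9 passed the filter of 1 CPM on the mean that left 501 miRNAs to compare between the groups. The libraries came from whole liver of male C57BL/6 mice, 3 in the normal diet group (NC) and 3 in the MAFLD group. Both diets began at 8 weeks of age and lasted 16 weeks, normal chow in the NC mice and a high-fat diet in the MAFLD mice, and the livers were taken after a 6 h fast. There is 1 library per liver, and no pooling of livers or genetic change is described. The model is a diet model, and whole liver holds hepatocytes, endothelial cells, stellate cells and leukocytes together. In such bulk samples fewer cells of a type and less RNA per cell cannot be told apart.

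A miRNA hairpin gives 2 arms, 5p and 3p, of which 1 is usually kept as the guide that represses mRNAs through its seed, bases 2 to 8 from the 5′ end. The 2 clusters are paralogues, and each carries one miR-23, one miR-27 and one miR-24 hairpin in the same order. In liver and fat tissue miR-27 is known as a repressor of lipid genes such as Gpam and Pparg, the last being the master factor of fat cell formation. MiR-24 is known to repress Insig1, a brake on the lipogenic SREBP factors, and miR-23 is known to repress glutaminase, which feeds glutamine into central metabolism. The comparison asks how the levels of these miRNAs, and the balance between the 2 clusters, differed between NC and MAFLD livers.

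The mature sequences show which members act on the same seed and how little separates the paralogues. They are taken from RefSeq (GRCm38.p6), where 8 of the 9 members were matched, and the capitals mark the seed. MiR-23b-3p was not matched.

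miR-23a-3p: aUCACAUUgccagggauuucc
miR-27a-3p: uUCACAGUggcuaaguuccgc
miR-27b-3p: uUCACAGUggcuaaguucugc
miR-24-3p: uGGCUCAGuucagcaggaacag
miR-24-2-5p: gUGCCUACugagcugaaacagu
miR-24-1-5p: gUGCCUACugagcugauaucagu
miR-27a-5p: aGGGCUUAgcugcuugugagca
miR-27b-5p: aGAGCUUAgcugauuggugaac

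MiR-27a-3p and miR-27b-3p carry the same seed and differ at 1 of 21 positions, C19U, counted from 1 at the 5′ end with the base of miR-27a-3p first. A read of either is told from the other by that base alone, so trimmed or miscalled reads of the 2 cannot be separated. MiR-24-3p is the same molecule from both hairpins, and its reads do not show which cluster made them. The partner arms do separate the miR-24 hairpins. MiR-24-2-5p and miR-24-1-5p share the seed and the first 16 bases. Counted without gaps, they differ at 5 of 22 positions, A17U being the first, and their lengths differ by 1 base. MiR-27a-5p and miR-27b-5p differ at 8 of 22 positions, also counted without gaps, and with G3A they differ inside the seed. Among listed miRNAs with a matched sequence, no other shares the miR-23a-3p or miR-27 guide seed, and the unmatched miR-23b-3p could not be compared. The miR-24-3p seed is shared by miR-5124b, miR-6369, miR-6410 and miR-6413, which together were read 9 times in the 6 libraries.

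In GRCm38 the chromosome 8 cluster spans 404 bases on the plus strand, with Mir23a (ENSMUSG00000065611.1) at chr8:84208518-84208592, Mir27a (ENSMUSG00000065444.1) at chr8:84208672-84208758 and Mir24-2 (ENSMUSG00000065541.1) at chr8:84208815-84208921. No other annotated gene overlaps Mir23a or Mir27a, and Mir24-2 overlaps the start of the long non-coding RNA Gm26532. The chromosome 13 cluster spans 792 bases on the plus strand, with Mir23b (ENSMUSG00000065599.2) at chr13:63300484-63300557, Mir27b (ENSMUSG00000065475.2) at chr13:63300712-63300784 and Mir24-1 (ENSMUSG00000105904.1) at chr13:63301208-63301275. All 3 lie inside the protein-coding gene 2010111I01Rik (Aopep) on the same strand and inside Fancc on the opposite strand. Mir23b is intronic in both, whereas Mir27b and Mir24-1 also overlap exons of non-coding or decay-prone 2010111I01Rik transcripts. The hairpins of Mir3074-2 and Mir3074-1 lie antisense to Mir24-2 and Mir24-1, and their 3 listed miRNAs each had at most 8 reads in any library.

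The depth was 1336935 to 2549598 reads on miRNAs in the NC livers and 1534569 to 4685712 in the MAFLD livers, and 3 reads, taken as the smallest level that can be told from 0, equal 0.640 to 2.24 CPM. MiR-148a-3p alone took between 46.8% and 71.4% of the reads, the highest shares being in NC replicates 1 and 2, so a change in its share shifts the CPM of all others. NC replicate 3 stood apart from the other NC livers. Its miR-148a-3p share was 48.5%, inside the 46.8% to 56.7% of the MAFLD livers. MiR-9-5p, a neuronal miRNA, was at 344 and 530 CPM in NC replicates 1 and 2 but at 9.72 CPM in NC replicate 3. The MAFLD livers had 5.25, 4.48 and 12.4 CPM of miR-9-5p. For both miRNAs NC replicate 3 was thus like the MAFLD livers, and NC replicates 1 and 2 differed from all others. The hepatocyte miRNA miR-122-5p was at 42159 to 85150 CPM in all 6 libraries. Together the 9 members made up 0.418%, 0.437% and 0.872% of the reads in NC livers and 1.04%, 0.669% and 0.886% in MAFLD livers, with NC replicate 3 inside the MAFLD range.

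MiR-27b-3p was the most abundant member in every liver. Its level was 2679.6, 2749 and 5809 CPM under NC and 7451, 4590.3 and 5966 CPM under MAFLD, for means of 3746 ± 1787 and 6002 ± 1431 CPM (SD, n = 3 each). The first 2 NC livers lay below every MAFLD liver, and NC replicate 3 lay inside the MAFLD range. MiR-23b-3p, its neighbour on chromosome 13, came second, with 537, 678 and 1147 CPM under NC against 972, 819.5 and 1155 CPM under MAFLD, means of 787 ± 319.6 and 982 ± 168 CPM. Again only NC replicate 3 reached the MAFLD values.

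MiR-24-3p, made by both clusters, measured 264, 332 and 668 CPM under NC against 775, 555 and 658 CPM under MAFLD (means 421 ± 216 and 663 ± 109.97 CPM), and only NC replicate 3 overlapped with the MAFLD values. MiR-27a-3p, the chromosome 8 twin of miR-27b-3p, measured 472, 321 and 493 CPM under NC against 694, 356 and 579 CPM under MAFLD (means 429 ± 93.8 and 543 ± 172 CPM), with NC replicates 1 and 3 inside the MAFLD range. These 2 did not keep a fixed order, since miR-24-3p was above miR-27a-3p in 5 of 6 livers and below it in NC replicate 1. MiR-23a-3p measured 108, 148 and 400.2 CPM under NC against 339, 230.3 and 338 CPM under MAFLD (means 219 ± 158 and 302 ± 62.4 CPM), and NC replicate 3 was the highest of all 6 livers.

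The partner arms were scarcer. MiR-24-2-5p measured 107, 126 and 179 CPM under NC against 139, 121 and 141 CPM under MAFLD, so the MAFLD values lay wholly inside the NC range. MiR-24-1-5p stayed between 6.28 and 8.96 CPM in all 6 livers, from 11 to 42 reads. MiR-27a-5p was between 4.05 and 15.7 CPM, from 7 to 22 reads, and miR-27b-5p was between 2.99 and 6.52 CPM, from 4 to 14 reads. MiR-24-1-5p and miR-27a-5p did not differ beyond their spread, with miR-24-1-5p above in 3 livers, equal in 2 and below in 1. For miR-27b-5p in NC replicate 3, the 95% Wilson interval of its 4 reads was 1.16 to 7.69 CPM, which covers counting error only. The 5p arms of miR-23a and miR-23b are not members, and they were read at most 1 and 5 times per library.

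**Figure D1:**
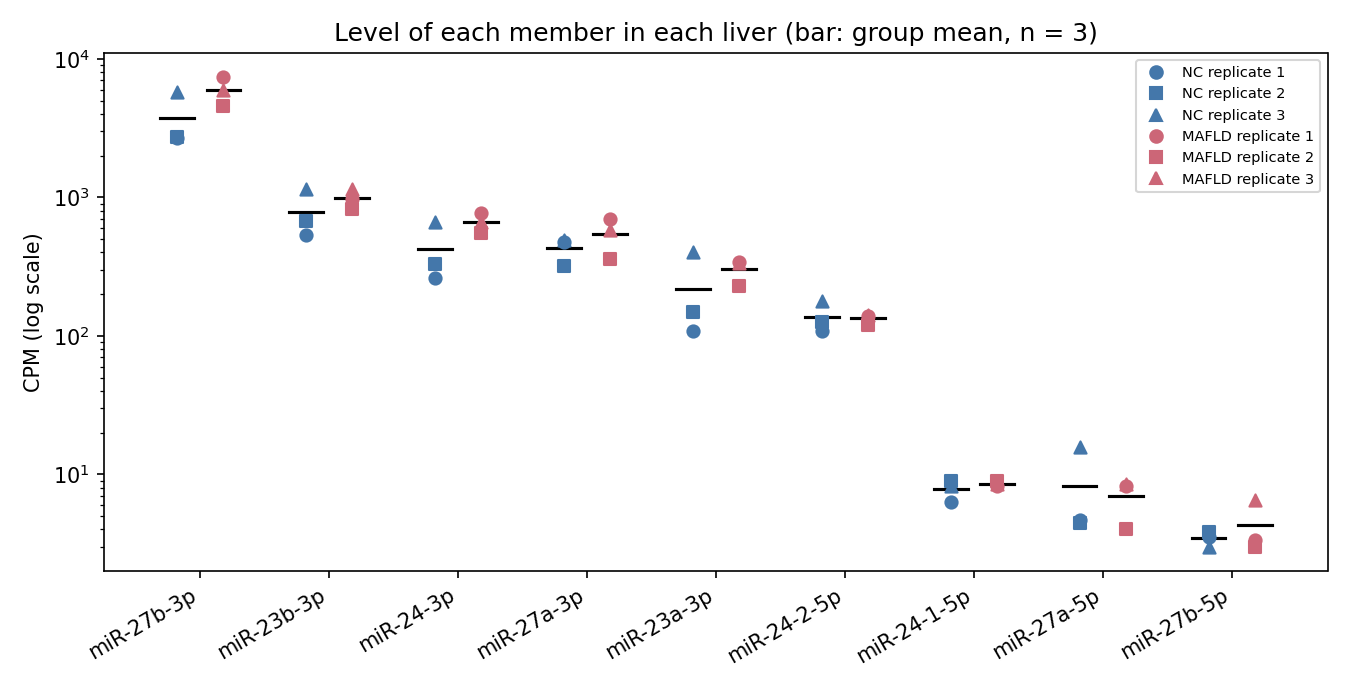
CPM of each member (log axis) in each of the 6 livers, NC in blue and MAFLD in red, with the replicate number as marker shape and a bar at each group mean. MiR-27b-3p is highest everywhere, and NC replicate 3 lies within or above the MAFLD range for the 5 most abundant members.

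In the comparison of MAFLD with NC livers, no member passed an adjusted p of 0.05 by limma on log2(CPM + 1), and 1 of the 501 miRNAs tested did (0.2%). At an unadjusted p under 0.05, 1 of 9 members was higher, miR-27b-3p, where 13.4% of all tested miRNAs were higher, and 0 of 9 were lower, where 4.59% were. With edgeR on the recovered reads 0 members passed the unadjusted p, where 7.39% of all miRNAs were higher and 9.98% lower. With DESeq2 1 did, miR-24-2-5p, which was lower, where 5.79% of all miRNAs were higher and 10.8% lower. The members' share of calls is thus near that of all miRNAs.

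The log2 fold change of miR-27b-3p was 0.75 (standard error 0.34, adjusted p = 0.257), with a 95% interval of 0.026 to 1.48. MiR-24-3p had a like value of 0.76 (standard error 0.39, adjusted p = 0.304), with an interval of −0.065 to 1.58. MiR-23a-3p followed with 0.68 (standard error 0.46, adjusted p = 0.425). These 3 were the only members above the median of all tested miRNAs, 0.43. MiR-23b-3p stood at 0.38 and miR-27a-3p at 0.31, with intervals from −0.38 to 1.13 and from −0.47 to 1.09. The 4 partner arms were at 0.20 for miR-27b-5p, 0.13 for miR-24-1-5p, −0.012 for miR-24-2-5p and −0.078 for miR-27a-5p. The last 2 were lower under other scalings, miR-24-2-5p at −0.48 with median ratios, −0.45 with edgeR and −0.49 with DESeq2, and miR-27a-5p at −0.47, −0.61 and −0.63. The groups overlapped for all 9 members, whereas 15.2% of all tested miRNAs were higher and 4.19% were lower without overlap. The median of the 9 members was 0.31, and 7 of 9 were above 0, as were 71.3% of all tested miRNAs.

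These values depended on the scaling and on NC replicate 3. With median-ratio scaling, which takes a library's typical miRNA relative to its geometric mean over the 6 as the size of that library, the median over all miRNAs went from 0.43 to 0.044 and that of the members from 0.31 to −0.16. MiR-27b-3p was then at 0.28, miR-24-3p at 0.29 and miR-23a-3p at 0.21, whereas miR-23b-3p turned to −0.087 and miR-27a-3p to −0.16. In that scaling 0 of 9 members passed the unadjusted p, where 7.19% of all miRNAs were higher and 8.98% lower. With CPM counted without miR-148a-3p, miR-27b-3p was at 0.40, miR-24-3p at 0.41 and miR-23b-3p at 0.032. Without NC replicate 3 and with CPM, 3 of 9 members passed the adjusted p, all higher, where 22.8% of all tested miRNAs passed it and 19.0% were higher. These were miR-27b-3p at 1.12 (adjusted p = 0.00609 from limma), miR-24-3p at 1.15 (adjusted p = 0.00974) and miR-23a-3p at 1.23 (adjusted p = 0.0129). At an unadjusted p under 0.05 the same 3 and miR-23b-3p, at 0.69, were higher, where 29.9% of all miRNAs were. With both changes, miR-27b-3p was at 0.41, miR-24-3p at 0.44 and miR-23a-3p at 0.52, while 0 members passed the adjusted p and 1 was higher at an unadjusted p under 0.05, where 10.2% of all miRNAs were higher and 13.6% lower. MiR-27b-3p, miR-24-3p and miR-23a-3p were above 0 in all 18 alternatives computed for each of them, though miR-27b-3p came to 0.024 with quantile normalization.

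**Figure D2:**
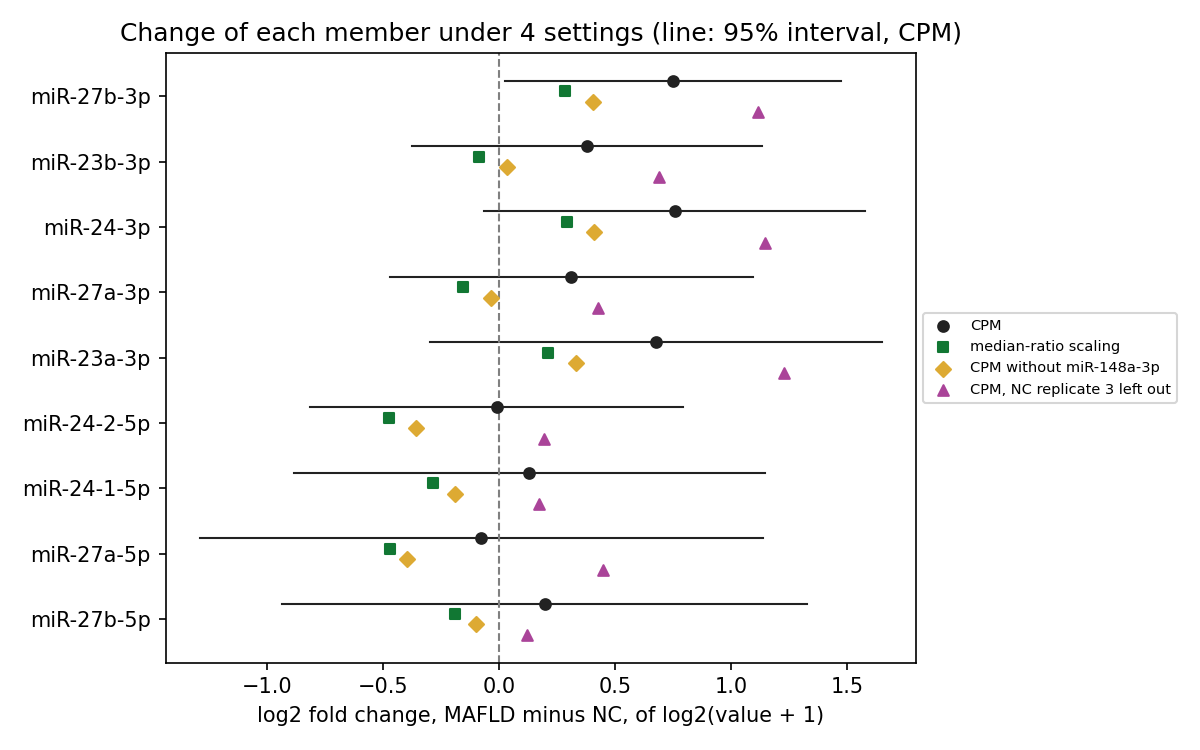
Log2 fold change of each member, MAFLD minus NC (horizontal axis), with CPM and its 95% interval (black), with median-ratio scaling (green), with CPM without miR-148a-3p (yellow) and with NC replicate 3 left out (purple). MiR-27b-3p, miR-24-3p and miR-23a-3p stay right of 0 in all 4, and miR-27a-3p crosses to −0.16 with median-ratio scaling.

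The ratio of 2 miRNAs within a liver does not depend on the library total. The b member of the miR-23 and miR-27 guide pairs was read more often in every liver. MiR-23b-3p exceeded miR-23a-3p by 4.96, 4.59 and 2.87 times in NC livers and by 2.87, 3.56 and 3.42 times in MAFLD livers. MiR-27b-3p exceeded miR-27a-3p by 5.67, 8.56 and 11.8 times in NC livers and by 10.7, 12.9 and 10.3 times in MAFLD livers. Over all livers the mean log2 ratio of a to b was −1.85 ± 0.33 for miR-23 and −3.27 ± 0.43 for miR-27 (SD, n = 6), with b higher in 6 of 6 livers (two-sided exact sign-flip permutation test, p = 0.0312 for each, also after adjustment over 3 pairs, the smallest that 6 livers allow).

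The partner arms of the miR-24 hairpins ran the other way. MiR-24-2-5p, from chromosome 8, exceeded miR-24-1-5p, from chromosome 13, by 17.1, 14.1 and 21.7 times in NC livers and by 16.8, 13.5 and 16.7 times in MAFLD livers. The mean log2 ratio of CPM + 1 was 3.88 ± 0.24 (SD, n = 6), with the chromosome 8 arm higher in 6 of 6 livers (exact sign-flip permutation test, p = 0.0312). A pseudocount of 0.1 gave 4.02 and a pseudocount of 5 gave 3.40. The cluster with the more often read miR-23 and miR-27 guides was therefore the one with the less often read miR-24 partner arm. The miR-24 guide could not be assigned to a cluster. Both comparisons are of read counts, and whether the different sequences were captured equally was not tested.

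**Figure D3:**
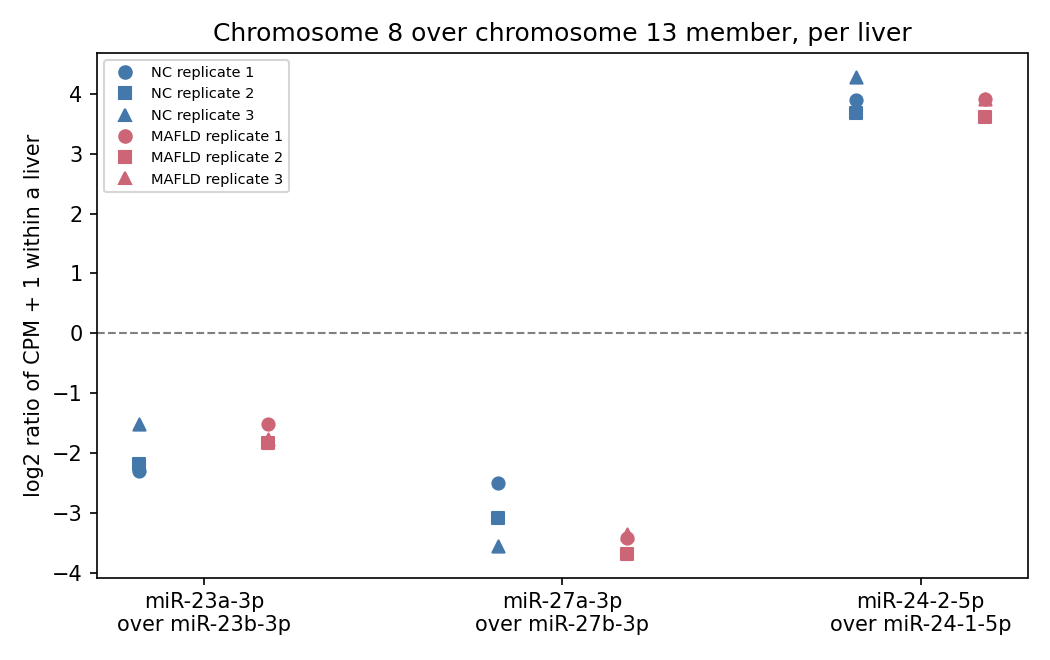
Log2 ratio of CPM + 1 of the chromosome 8 member over its chromosome 13 counterpart within each liver, for miR-23-3p, miR-27-3p and miR-24-5p, NC in blue and MAFLD in red, replicate number as marker shape. All miR-23 and miR-27 points lie below 0 and all miR-24-5p points above 0, with the groups overlapping in each pair.

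The a to b balance was not shown to differ between the groups. The log2 ratio of miR-23a-3p to miR-23b-3p was 0.30 higher in MAFLD than in NC livers, with an SD of 0.42 in NC and 0.17 in MAFLD livers (n = 3, two-sided exact permutation test, p = 0.3). That of miR-27a-3p to miR-27b-3p was −3.05 ± 0.53 in NC livers and −3.49 ± 0.17 in MAFLD livers (exact permutation test, p = 0.3). For miR-24-2-5p to miR-24-1-5p the difference of MAFLD and NC was −0.14 (exact permutation test, p = 0.6). In a design of 3 livers against 3 this test cannot go below 0.1. The NC livers were more spread than the MAFLD livers in all 3 pairs, and for miR-27 the NC livers ran from 7.82% to 15.0% of reads on miR-27a-3p, against 7.19% to 8.84% in MAFLD livers.

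Within the chromosome 13 cluster the ratio of neighbours did not overlap between the groups, by a narrow gap, and a difference was not shown. MiR-27b-3p was read 4.99, 4.05 and 5.06 times as often as miR-23b-3p in NC livers and 7.67, 5.60 and 5.16 times as often in MAFLD livers. Every MAFLD liver lay above every NC liver, though MAFLD replicate 3 and NC replicate 3 lay close together. For the share of miR-27b-3p in the reads of both miRNAs, the 95% Wilson intervals of these 2 livers overlapped. They were 82.7% to 84.2% in NC replicate 3 and 83.1% to 84.5% in MAFLD replicate 3. The log2 ratio was 2.22 ± 0.18 in NC and 2.60 ± 0.30 in MAFLD livers (SD, n = 3), a difference of 0.37 (exact permutation test, p = 0.1, the smallest possible, and 0.525 after adjustment over 7 ratios). Without MAFLD replicate 1 the difference was 0.20. In the chromosome 8 cluster, the log2 ratio of miR-27a-3p to miR-23a-3p differed by −0.37 with overlap (exact permutation test, p = 0.6), and the NC livers alone ran from 1.23 to 4.36 reads of miR-27a-3p per read of miR-23a-3p.

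The 2 arms of a hairpin were read very unequally for miR-27. Per 100 reads of miR-27a-3p there were 0.997, 1.39 and 3.19 reads of miR-27a-5p in NC livers and 1.19, 1.14 and 1.46 in MAFLD livers. Per 100 reads of miR-27b-3p there were 0.132, 0.139 and 0.0515 reads of miR-27b-5p in NC livers and 0.0453, 0.0651 and 0.109 in MAFLD livers. Neither arm ratio separated the groups (exact permutation tests, p = 0.6 for miR-27a and 0.3 for miR-27b, with 4 to 22 reads of the 5p arm per library).

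A further 4 ratios, with the miR-24 partner arms as numerator, were looked at after the values had been seen and are given without a test. In 1 of the 4 the groups did not overlap, miR-24-2-5p to miR-24-3p. Per 100 reads of miR-24-3p there were 40.8, 38.0 and 26.8 reads of miR-24-2-5p in NC livers and 17.9, 21.7 and 21.5 in MAFLD livers. Each MAFLD liver lay below each NC liver, NC replicate 3 being nearest. The mean log2 ratio was −1.52 ± 0.33 in NC and −2.29 ± 0.16 in MAFLD livers (SD, n = 3), a difference of −0.77. Since the 3p arm comes from both hairpins, this ratio mixes the arm use of Mir24-2 with the output of Mir24-1, and the 2 cannot be told apart. MiR-24-1-5p per 100 reads of miR-24-3p was 2.38, 2.69 and 1.23 in NC livers and 1.06, 1.61 and 1.29 in MAFLD livers, which overlapped. The groups also overlapped for miR-24-2-5p to its neighbours, with a log2 difference of −0.32 against miR-27a-3p and −0.69 against miR-23a-3p.

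**Figure D4:**
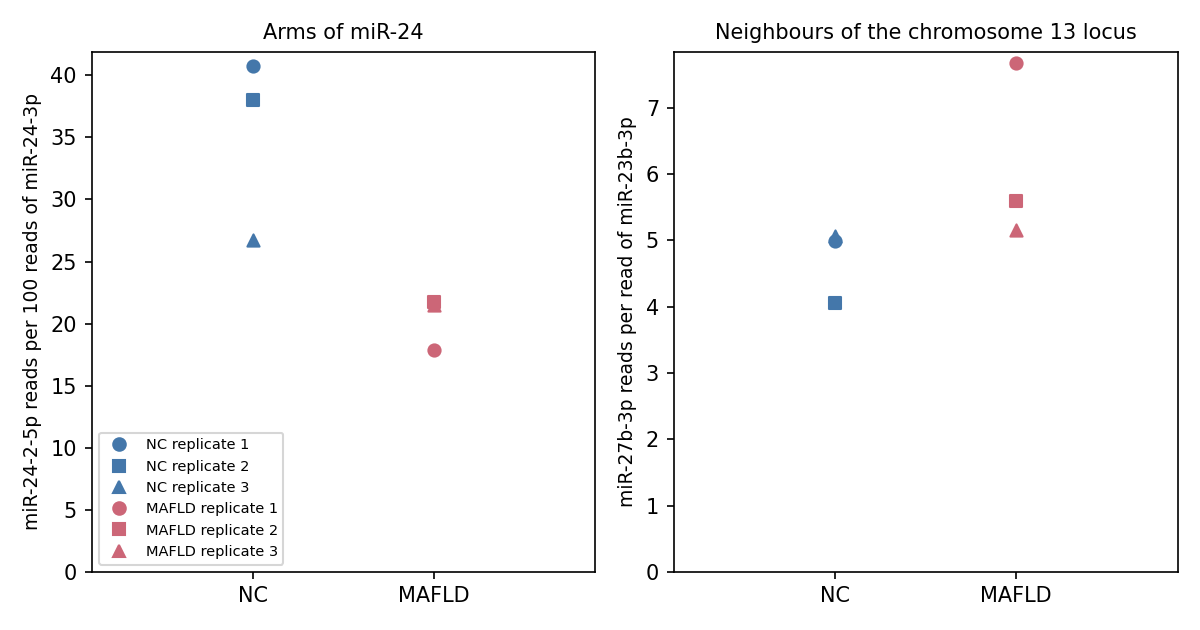
Left, reads of miR-24-2-5p per 100 reads of miR-24-3p in each liver. Right, reads of miR-27b-3p per read of miR-23b-3p. NC in blue and MAFLD in red, replicate number as marker shape. MAFLD livers lie between 17.9 and 21.7 on the left, below all NC livers, and between 5.16 and 7.67 on the right, above all NC livers, by a narrow gap.

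Other miRNAs known for lipid or insulin genes gave a frame for these values. Their values are in CPM, which shifts with the miR-148a-3p share, and are not given under other scalings. Of 21 such miRNAs, 20 were tested, 7 were higher and 1 was lower at an unadjusted p under 0.05, where 13.4% of all tested miRNAs were higher and 4.59% lower, and their median log2 fold change of 0.43 was that of all tested miRNAs. The 7 were miR-802-5p, the 1 of them past the adjusted p (2.60 on the log2 scale, with limma's adjusted p = 0.0263), miR-34a-5p (1.43), miR-378a-5p (1.12), miR-107-3p (1.08), miR-30c-5p (1.07), miR-378a-3p (0.93) and miR-103-3p (0.86). MiR-30c-5p, known to repress the lipoprotein assembly gene Mttp, measured 1219, 1114 and 1982 CPM under NC against 3827, 2747 and 2390.2 CPM under MAFLD, without overlap. MiR-378a-3p, which lies in an intron of the metabolic co-activator gene Ppargc1b, ran from 1706 to 4093 CPM in NC and from 3752 to 5664 CPM in MAFLD livers. The 1 lower was miR-370-3p (−1.69), at 5.10, 12.1 and 2.24 CPM in NC livers, above each MAFLD liver. The value of NC replicate 3 equals the 3 reads taken as the smallest level, and MAFLD replicate 3 lay below 3 reads. The lack of overlap for miR-370-3p thus rests on few reads.

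Endothelial cells are a known source of these clusters, and marker miRNAs of the cell types of liver were read beside them, against the 13.4% of all tested miRNAs that were higher and the 4.59% that were lower at an unadjusted p under 0.05. The 2 endothelial markers, which are the arms of 1 hairpin, were both higher at an unadjusted p under 0.05, miR-126a-3p by 0.69 and miR-126a-5p by 1.01 on the log2 scale, each with limma's adjusted p = 0.212. The groups overlapped for miR-126a-5p and not for miR-126a-3p. Their summed level was 4709.5 to 6587 CPM in NC livers and 7659 to 10155 CPM in MAFLD livers. All marker values here are in CPM, which shifts with the miR-148a-3p share, and are not given under other scalings. The 4 hepatocyte markers summed to 102722 to 167007 CPM in NC and 147868 to 176512 CPM in MAFLD livers, and 1 of them was higher at an unadjusted p under 0.05. The 5 stellate or mesenchymal markers summed to 12612 to 30033 and 19775 to 26950 CPM, with 2 of them higher, and the 6 leukocyte markers to 1616 to 3061 and 2223 to 3314 CPM, with 1 higher. The 4 neuronal markers summed to 50.1 to 744 CPM in NC and 44.2 to 63.9 CPM in MAFLD livers, with 2 lower. No tested erythroid, muscle or pancreas marker passed the unadjusted p in either direction, and of the 3 pancreas markers 2 were tested. No marker of these lists was at 0 in every library. The part of these cell types in the members' values was not tested.

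Among 232 other miRNAs averaging 10 CPM or more, those whose log2(CPM + 1) over the 6 livers was most like the mean of miR-23b-3p and miR-27b-3p were miR-194-5p (Pearson r = 0.998), miR-199b-5p (0.995) and let-7j (0.991). Most like the mean of miR-23a-3p and miR-27a-3p were miR-140-5p (r = 0.994), miR-186-5p (0.988) and miR-328-3p (0.986). MiR-194-5p, a hepatocyte miRNA, measured 2218, 2519 and 7243 CPM under NC against 7706, 4345 and 6991 CPM under MAFLD. As for miR-27b-3p, NC replicates 1 and 2 were the low livers. The 6 points share their library totals, and these likenesses are descriptions over 6 livers of 2 groups.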

How the data were processed

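Small RNA of 6 livers was sequenced, 3 NC and 3 MAFLD. The authors deposited CPM values per mature miRNA, scaled to the reads on all listed miRNAs of a library. Per the submitters' processing notes FastQC, cutadapt, Bowtie and edgeR were used with build GRCm38, with no versions or settings, and the miRNA database is not given in the sources used here. All 6 columns were mapped by name. Whole reads were recovered by dividing by the smallest value of a library, and 100% of values came within 0.02 of a whole number. On log2(CPM + 1), the 501 miRNAs averaging 1 CPM or more were tested between the groups by limma 3.58.1 (R 4.3.3; eBayes with trend, two-sided, Benjamini-Hochberg). This pseudocount draws the fold changes of scarce members towards 0. Ratios were taken on CPM + 1 and tested by exact permutation (scipy 1.17.1). Alternatives tried were a pseudocount of 0.1 or 5, a filter at 10 CPM or none, 3 other scalings, no trend, the replicate block, each library left out, edgeR 4.0.16 and DESeq2 1.42.0. Same-numbered livers were different mice, and the correlations of their deviations from the group means were 0.012, −0.020 and −0.046, so the numbers were not taken as pairs. The code was tested on simulated reads. The labels name separate samples, and p-values measure the spread between these livers.

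The miRNAs named are the 9 members, the other arms of their hairpins, miRNAs sharing a member's seed, the 3 most like each cluster, and the lipid miRNAs at an unadjusted p under 0.05. Outside this rule, miR-148a-3p, miR-9-5p, miR-122-5p, miR-126a-3p, miR-126a-5p and the antisense Mir3074 hairpins are named, chosen after their values were seen. The members and lists were chosen with earlier results of these data known. Growth protocols in the labels mention HepG2 cells, whereas every sample's title and tissue is mouse liver, which was used. Mature sequences were matched in RefSeq for 1312 of the 1546 miRNAs. Positions come from GENCODE M21 on GRCm38.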

Additional observations from a re-analysis of the deposited data

How the results depend on the processing

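The comparison of groups depended on the scaling and on single livers. Median-ratio scaling turned miR-23b-3p to −0.087, miR-27a-3p to −0.16, miR-27b-5p to −0.19 and miR-24-1-5p to −0.29. In the same order edgeR gave −0.060, −0.17, −0.24 and −0.28, DESeq2 gave −0.096, −0.21, −0.30 and −0.32, and the median-ratio scaling of the 5 livers other than NC replicate 3, chosen after seeing the data, gave −0.021, −0.28, −0.45 and −0.46. Quantile normalization gave −0.22, −0.14 and −0.097 for miR-23b-3p, miR-27a-3p and miR-24-1-5p, and CPM without miR-148a-3p gave −0.036, −0.10 and −0.19 for miR-27a-3p, miR-27b-5p and miR-24-1-5p. The scalings of all 6 livers lower the median of all miRNAs, from 0.43 to between −0.0049 and 0.16. In the 5 livers other than NC replicate 3, median-ratio scaling lowered it from 0.67 to 0.12. Leaving out 1 liver gave 0.29 to 1.23 for miR-23a-3p, 0.56 to 1.12 for miR-27b-3p, 0.48 to 1.15 for miR-24-3p, −0.0015 to 0.22 for miR-24-1-5p, −0.17 to 0.19 for miR-24-2-5p, −0.36 to 0.45 for miR-27a-5p, 0.14 (without NC replicate 1) to 0.69 (without NC replicate 3) for miR-23b-3p, 0.11 (without MAFLD replicate 1) to 0.59 (without MAFLD replicate 2) for miR-27a-3p and −0.086 to 0.37 for miR-27b-5p. The highest value of the first 3 was without NC replicate 3, which alone made 3 members pass the adjusted p, while 0 passed in every other alternative.

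The 1 member higher at an unadjusted p under 0.05 became 0 with the pseudocount of 5, the filter at 10 CPM, each other scaling without a left-out liver, no trend, edgeR, DESeq2 and the replicate block. With 1 liver left out it was between 0 and 4, 4 being without NC replicate 3, where 29.9% of all miRNAs were higher. DESeq2 called 1 lower. Over all miRNAs the adjusted p called 1, and 0 without the trend, 11 without the filter, 5 with the replicate block, 2 when CPM left out miR-148a-3p, 2 when scaled by median ratios, 28 with DESeq2, 36 with median-ratio scaling of those 5 livers, and 0 to 114 when 1 liver was left out, 114 being without NC replicate 3. With the replicate block 0 members passed either threshold, and miR-27b-3p had a log2 fold change of 0.75 and an unadjusted p of 0.0555 from limma.

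Within-liver ratios of the guides moved little with pseudocount or scaling. Those with a scarce partner arm moved more, as the mean log2 ratio of miR-24-2-5p to miR-24-1-5p went from 3.88 to 3.40 with the pseudocount of 5. Leaving out 1 liver, the group differences ran from −0.28 to 0.023 for miR-24-2-5p to miR-24-1-5p, from −0.72 to 0.025 for miR-27a-5p to miR-27a-3p and from −0.80 to 0.10 for miR-27a-3p to miR-23a-3p, and the other 4 kept their sign. Of these, miR-23a-3p to miR-23b-3p ran from 0.15 without NC replicate 1 to 0.54 without NC replicate 3, miR-27a-3p to miR-27b-3p from −0.17 to −0.69 without the same livers, and miR-27b-5p to miR-27b-3p from −0.28 without MAFLD replicate 1 to −0.996 without NC replicate 3. MiR-27b-3p to miR-23b-3p ran from 0.20 without MAFLD replicate 1 to 0.49. The a to b log2 ratios ran from −1.92 to −1.76 for miR-23, from −3.42 to −3.19 for miR-27 and from 3.80 to 3.94 for miR-24-5p, where the exact permutation test of 5 livers cannot go below 0.0625. The causes were not tested. Depth limits the miR-27 partner arms, with 4 to 22 reads per library.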
